A study of Mus musculus with 9 samples.

Results

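The macrophage marker genes described here are 32 genes that are widely used to recognise macrophages in tissue RNA, taken by gene name from RNA-seq tables of mouse brown adipose tissue (BAT) and of cultured mouse brown adipocytes. Of the 32 names, 28 were found in all 4 deposited tables, which together list 29386 gene identifiers. The BAT table held 31 of them (Vsig4 was not listed), the 4-OHT table held 31 (Ccr2 was not listed) and each siRNA table held 29 (Cd163, Ccr2 and Timd4 were not listed). The study asked what the loss of Setdb1, which encodes a histone H3 lysine 9 methyltransferase, does to gene expression in brown fat. It had 3 experiments and 9 libraries. In tissue, 2 Setdb1 AKO mice (Setdb1 fl/fl; Adipoq-Cre+) were set against 2 control mice (Setdb1 fl/fl; Adipoq-Cre-). In culture, primary brown adipocytes carrying Setdb1 flox/flox and Rosa26Cre-ERT2 received 4-OHT at 1 uM or ETOH vehicle, with 1 library each. In the third experiment primary brown adipocytes were transfected with siSetdb1 (2 libraries) or siNC (1 library).

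Several features limit these groups as a test of macrophages. The Adipoq promoter drives Cre in adipocytes, so the macrophages of the tissue are not its target cells. All 4 mice carried the floxed alleles, and no mouse with Cre and intact Setdb1 was included. Rosa26 is active in most cell types, so the inducible Cre of the cultured cells is not limited to adipocytes, and an siRNA enters any cell that takes it up. Age, sex, housing temperature and the number of mice behind each culture are not given in the sources used here. Nothing states that the 2 siSetdb1 libraries came from separate cultures. The BAT p-values below measure the spread between 2 mice per group. The siRNA p-values rest on the spread between the 2 siSetdb1 libraries, which may be technical. The siNC group is a single library, so its own spread was not measured.

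Macrophages are phagocytes of the innate immune system that depend on the growth factor CSF1, acting through its receptor CSF1R, and on the transcription factor PU.1, encoded by Spi1. Tissue macrophages engulf dying cells and microbes through scavenger, lectin and Fc receptors, digest them in lysosomes, and secrete the complement component C1q. In fat depots they lie between the adipocytes and along vessels and nerves, and their number changes with feeding, cold and inflammation. Part of the list, such as Adgre1 (F4/80), C1qa and Marco, is close to macrophage-restricted, whereas Ptprc, Laptm5 and Fcer1g mark leukocytes more broadly and Cd14 can also be expressed by cells that are not leukocytes.

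The upstream sequences of 7 of these genes are printed as background, since PU.1 binding near the start site is a known feature of macrophage genes. The 7 were chosen by name and do not represent the list. C1qa, planned together with C1qb and C1qc, is not printed and was not among the genes found with the PU.1 core. Any part of PU.1 in the lower marker levels of 4-OHT cells was not tested. RefSeq promoter entries (GRCm38.p6) were matched for 25 of the 32 genes. The 6-letter PU.1 core GAGGAA, searched on both strands in the 250 bases before the RefSeq start, was present in 14 of the 25 (56.0%), against 25.9% of 27025 genes with such an entry. The AP-1 motif TGANTCA, searched in the same way, was present in 5 of 25 (20.0%), against 7.82% of all genes. These matches describe letters and not binding sites. The windows below lie at chr4:136886201-136886450 (C1qb, minus strand), chr4:136893066-136893164 (C1qc, minus strand), chr3:95526536-95526785 (Ctss, plus strand), chr2:14229164-14229391 (Mrc1, plus strand), chr1:120505025-120505274 (Marco, minus strand), chrX:96293439-96293688 (Vsig4, minus strand) and chr19:12460520-12460769 (Mpeg1, plus strand), all ending where an annotated exon begins or at the RefSeq start. They read 5′ to 3′ on the strand of the gene, and capitals mark the PU.1 core or its reverse complement TTCCTC.
C1qb: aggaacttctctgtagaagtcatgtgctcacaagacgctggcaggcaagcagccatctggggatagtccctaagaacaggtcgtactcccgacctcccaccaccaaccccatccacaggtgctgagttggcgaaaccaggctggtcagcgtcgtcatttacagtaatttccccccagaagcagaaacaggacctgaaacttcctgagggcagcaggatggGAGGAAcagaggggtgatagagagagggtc
C1qc: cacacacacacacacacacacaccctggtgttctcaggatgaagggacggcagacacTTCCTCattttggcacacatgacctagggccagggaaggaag
Ctss: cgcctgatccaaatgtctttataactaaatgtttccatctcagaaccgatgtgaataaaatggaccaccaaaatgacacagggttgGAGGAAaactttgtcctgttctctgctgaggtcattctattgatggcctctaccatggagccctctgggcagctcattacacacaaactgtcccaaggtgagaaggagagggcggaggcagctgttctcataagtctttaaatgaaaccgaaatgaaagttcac
Mrc1: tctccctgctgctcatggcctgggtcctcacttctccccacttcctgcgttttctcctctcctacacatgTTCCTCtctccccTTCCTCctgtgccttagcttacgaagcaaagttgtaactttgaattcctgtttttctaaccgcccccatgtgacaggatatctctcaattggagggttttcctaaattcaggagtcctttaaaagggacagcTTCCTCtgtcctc
Marco: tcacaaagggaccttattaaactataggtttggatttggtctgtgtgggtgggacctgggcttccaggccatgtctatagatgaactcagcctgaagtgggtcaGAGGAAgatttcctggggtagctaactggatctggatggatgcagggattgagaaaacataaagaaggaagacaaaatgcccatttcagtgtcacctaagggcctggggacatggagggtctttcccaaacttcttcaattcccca
Vsig4: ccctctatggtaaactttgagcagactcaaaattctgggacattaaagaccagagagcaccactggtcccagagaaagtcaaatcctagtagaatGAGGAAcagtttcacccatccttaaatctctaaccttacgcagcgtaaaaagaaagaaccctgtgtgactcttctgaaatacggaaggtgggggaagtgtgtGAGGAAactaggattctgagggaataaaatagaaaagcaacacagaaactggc
Mpeg1: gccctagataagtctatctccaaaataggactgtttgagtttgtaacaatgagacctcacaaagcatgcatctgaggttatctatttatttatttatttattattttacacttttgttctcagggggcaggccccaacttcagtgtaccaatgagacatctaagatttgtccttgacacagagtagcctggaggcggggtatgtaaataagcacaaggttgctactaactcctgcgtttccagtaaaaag
The core lay 30 bases before the RefSeq start in C1qb and 193 bases before it in C1qc, occurred 3 times in Mrc1 and 2 times in Vsig4, and was not among the letters of the Mpeg1 window.

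Setdb1 was first checked in every library. It had 9.17 and 11.5 CPM (reads scaled to the total of each library) in Setdb1 AKO BAT, against 29.3 and 29.2 CPM in control BAT. It had 20.5 CPM in 4-OHT cells against 35.8 CPM in ETOH cells, and 20.7 and 22.3 CPM in siSetdb1 cells against 43.0 CPM in siNC cells. All 9 libraries thus went with their labels, although counts over the whole gene cannot separate the deleted exons from the rest. Libraries held between 15979479 and 30176359 gene-assigned reads. Ucp1, the uncoupling protein that defines brown fat, was abundant, at 6133 and 3795 CPM in Setdb1 AKO BAT and 6898 and 5431 CPM in control BAT. In culture Ucp1 was present at 289 CPM in 4-OHT cells and 272 CPM in ETOH cells, and at 866 and 770 CPM in siSetdb1 cells and 895 CPM in siNC cells.

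In brown fat tissue 1 of the macrophage markers was called different between Setdb1 AKO and control mice. The call was not kept by every alternative fit, such as that without a filter on low counts (limma adjusted p = 0.206). Cd14, the co-receptor that hands lipopolysaccharide to Toll-like receptor 4, was higher in Setdb1 AKO BAT, while the remaining markers had no common direction and none of them passed the test. Of the 29 markers that reached 10 normalised counts in 2 or more libraries, limma called 1 higher in Setdb1 AKO BAT (against 1.00% of 14466 genes) and 0 lower (against 0.677%). Cd14 was also the only marker at an unadjusted p under 0.05, where 17.7% of all genes lay, and edgeR and DESeq2 likewise called 0 markers lower. The fitted log2 change was above 0 in 15 of the 29 markers, and its median was 0.03, against 0.0058 over all genes tested. Summed over the listed markers, reads came to 442 ± 52.5 CPM in Setdb1 AKO BAT and 448 ± 155 CPM in control BAT (SD, n = 2 each). In whole tissue fewer cells of a type and less RNA per cell cannot be told apart.

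**Figure D1:**
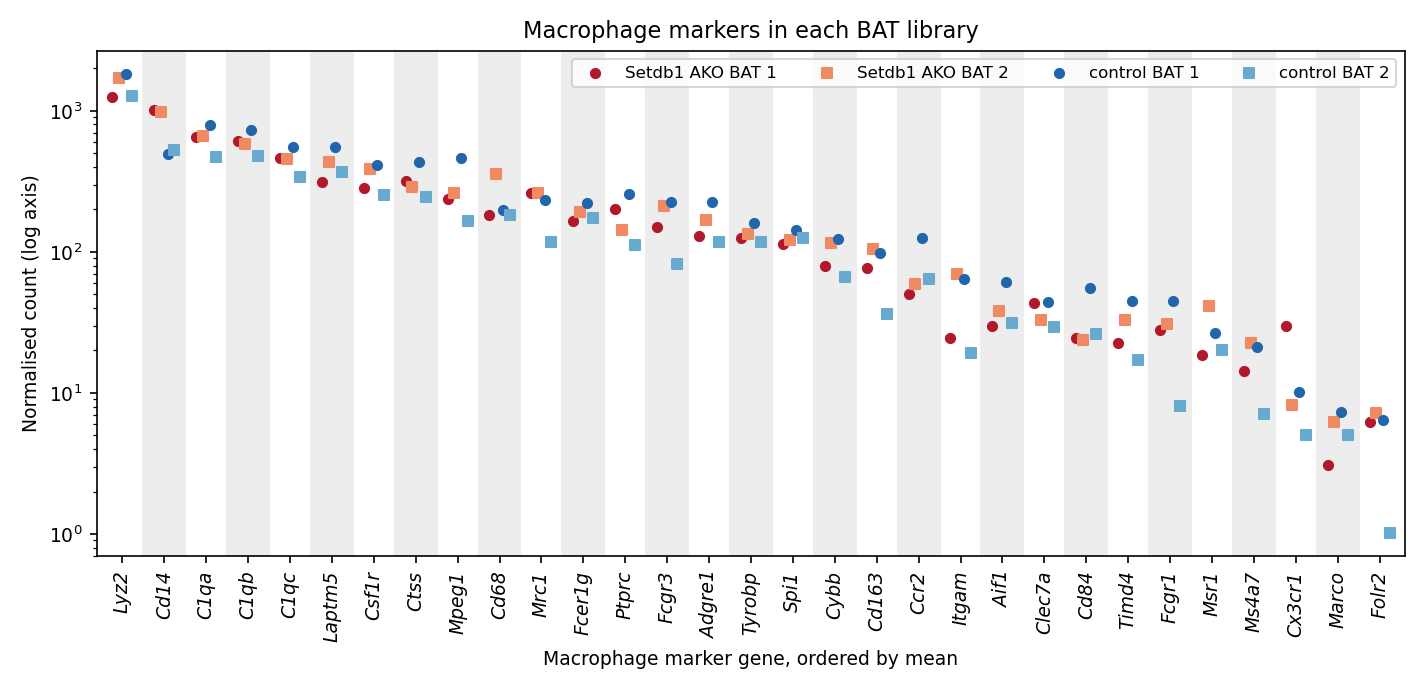
Normalised counts (log axis) of the 31 macrophage markers listed in BAT, ordered by their mean, with 1 point per library: Setdb1 AKO 1 and 2 in red and orange, control 1 and 2 in dark and light blue. Among the 29 tested genes, both knockout points lie above both controls for Cd14 and Mrc1. The gap is wide for Cd14 and narrow for Mrc1 (260 and 263 in Setdb1 AKO, 234 in control 1). For 14 of the 29 tested genes control 1 lies highest and control 2 lowest.

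Cd14 (ENSMUSG00000051439, chr18:36725074-36726736 on the minus strand, GRCm38) had 1005 and 981 normalised counts in Setdb1 AKO BAT, against 493 and 529 in control BAT. Both knockout mice lay above both controls, and the spread within each group was small, with means of 993 ± 17.1 and 511 ± 24.8 (SD, n = 2 each). The log2 fold change was 0.96 with a standard error of 0.15 (limma adjusted p = 0.0314). Leaving out any 1 of the 4 mice kept the log2 change between 0.91 and 1.01 but ended the call, with limma adjusted p from 0.0628 to 0.275, and so did testing without a filter on low counts (0.206). The ratio of Cd14 to C1qa, each per kilobase, was 1.03 and 0.982 in Setdb1 AKO BAT and 0.414 and 0.740 in control BAT. Cd14 accounted for 14.5% and 12.4% of all macrophage marker reads in Setdb1 AKO BAT and 5.69% and 9.62% in control BAT.

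Without Cd14, the summed level of the markers was 346 and 420 CPM in Setdb1 AKO BAT and 526 and 306 CPM in control BAT. The 2 controls stood further apart than the 2 knockout mice, and both knockout values lay between them. Control 1 was above control 2 for 28 of the 29 tested markers, Cd14 being the exception, where 49.3% of all genes lay that way. In 20 of the 29 the gap was at least 1.5-fold, against 11.0% of all genes. Control 1 was the highest of the 4 libraries for 21 markers (21.4% of all genes) and control 2 the lowest for 19 (26.2% of all genes). In 14 markers both knockout mice lay between the 2 controls, against 9.56% of all genes. Setdb1 AKO 2 was above Setdb1 AKO 1 for 21 of the 29 (51.4% of all genes).

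Of the 9 marker genes of cell identity, 4 had both knockout mice between the controls: Adgre1, Csf1r, Mpeg1 and Ptprc. Adgre1, which encodes the macrophage surface protein F4/80, had 130 and 167 normalised counts in Setdb1 AKO BAT and 227 and 118 in control BAT. Csf1r, the receptor for the macrophage growth factor, had 284 and 387 normalised counts in Setdb1 AKO BAT and 415 and 253 in control BAT. Mpeg1, which encodes the pore-forming protein perforin-2, had 238 and 261 in Setdb1 AKO BAT and 464 and 165 in control BAT. Cd68, a lysosomal glycoprotein, was high in 1 knockout mouse, with 183 and 355 normalised counts in Setdb1 AKO BAT and 198 and 184 in control BAT. Spi1, the gene of PU.1, had 114 and 122 in Setdb1 AKO BAT, just below the 142 and 126 of control BAT, with a log2 change of -0.18 ± 0.23 (SE) and a limma adjusted p of 0.729. Laptm5, a lysosomal membrane protein of leukocytes, had 312 and 436 normalised counts in Setdb1 AKO BAT and 552 and 369 in control BAT. Aif1, the actin-bundling protein Iba1, had 29.8 and 38.2 in Setdb1 AKO BAT and 61.5 and 31.5 in control BAT. Ptprc (CD45, the common leukocyte phosphatase) had 201 and 142 in Setdb1 AKO BAT and 257 and 113 in control BAT. Itgam (CD11b) had 24.7 and 69.1 in Setdb1 AKO BAT and 64.2 and 19.3 in control BAT, so the groups overlapped.

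The 3 genes of complement C1q, which binds antibody-coated and dying cells and opens the classical complement pathway, lie side by side on chromosome 4 and kept the same order of libraries at both ends, control 1 highest and control 2 lowest. C1qa (chr4:136895917-136898803, minus strand) had 648 and 661 normalised counts in Setdb1 AKO BAT and 788 and 473 in control BAT. C1qb (chr4:136880129-136886187, minus strand) had 607 and 578 in Setdb1 AKO BAT and 733 and 480 in control BAT. C1qc (chr4:136889804-136893065, minus strand) had 466 and 457 in Setdb1 AKO BAT and 555 and 342 in control BAT. For all 3 chains the knockout mice lay between the controls, and the fitted log2 changes were 0.10, -0.0020 and 0.083 with standard errors of 0.24, 0.22 and 0.24. Per kilobase, C1qa made up 43.8% and 45.3% of the C1q reads in Setdb1 AKO BAT and 44.1% and 42.4% in control BAT, so the proportions of the chains stayed close while their summed level was 101 and 102 CPM in Setdb1 AKO BAT and 134 and 79.9 CPM in control BAT.

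Among the Fc receptors and the ITAM adaptors that carry their signals inside the cell, no gene passed the test. Fcgr3, a low-affinity receptor for IgG, had 150 and 212 normalised counts in Setdb1 AKO BAT and 227 and 82.2 in control BAT. Fcgr1, the high-affinity receptor, had 27.8 and 31.0 in Setdb1 AKO BAT and 44.9 and 8.12 in control BAT, so control 2 was far below the other 3 mice. The adaptor genes Fcer1g and Tyrobp were steadier: Fcer1g had 166 and 193 in Setdb1 AKO BAT and 222 and 172 in control BAT, and Tyrobp (DAP12) had 126 and 134 in Setdb1 AKO BAT and 161 and 117 in control BAT.

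Of the scavenger and pattern receptors, Mrc1 was, with Cd14, 1 of 2 markers whose knockout values both lay above both controls, a pattern held by 25.1% of all genes. Mrc1, the mannose receptor of resident macrophages, had 260 and 263 normalised counts in Setdb1 AKO BAT and 234 and 117 in control BAT (log2 fold change 0.66 ± 0.32 SE, limma adjusted p = 0.345). The knockout mice were close together, and the size of the difference depended on the control used: the log2 change was 1.16 with control 1 left out and 0.16 with control 2 left out. Cd163, the haemoglobin-haptoglobin scavenger receptor, had 77.2 and 104 in Setdb1 AKO BAT and 98.1 and 36.5 in control BAT. Clec7a, the beta-glucan receptor dectin-1, had 43.2 and 33.0 in Setdb1 AKO BAT and 44.0 and 29.4 in control BAT. Msr1, the class A scavenger receptor, had 18.5 and 41.3 in Setdb1 AKO BAT and 26.6 and 20.3 in control BAT. Timd4, a phosphatidylserine receptor of long-lived resident macrophages, had 22.6 and 33.0 in Setdb1 AKO BAT and 44.9 and 17.2 in control BAT, and the groups overlapped for all 3 genes. Marco and Folr2 did not reach the filter, with 3 to 8 and 1 to 7 reads per BAT library.

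The chemokine receptors split. Ccr2, which brings monocytes from the blood into tissue, had 50.4 and 58.8 normalised counts in Setdb1 AKO BAT and 126 and 63.9 in control BAT. Both knockout values lay below both controls, as they did for Spi1 and for Cd84, a leukocyte adhesion receptor with 24.7 and 23.7 in Setdb1 AKO BAT and 55.0 and 26.4 in control BAT; 24.9% of all genes had that order. The Ccr2 change was -0.71 ± 0.37 on the log2 scale (SE, limma adjusted p = 0.379). Cx3cr1, the fractalkine receptor, had 29.8 and 8.25 normalised counts in Setdb1 AKO BAT and 10.1 and 5.07 in control BAT, so its fitted log2 change of 1.04 ± 0.73 (SE) came from 1 knockout mouse. Several genes overlap the annotated span of Cx3cr1 on either strand, among them Csrnp1 with 1994 to 2842 reads in BAT, and the strand setting of the counting is not given in the sources used here.

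Lyz2, the lysozyme gene of myeloid cells (chr10:117277331-117282321, minus strand), was the most abundant marker per kilobase in BAT. It had 1251 and 1714 normalised counts in Setdb1 AKO BAT and 1832 and 1275 in control BAT, and the groups overlapped. Ctss, the lysosomal protease cathepsin S, had 318 and 287 in Setdb1 AKO BAT and 437 and 245 in control BAT. Cybb, the catalytic subunit of the phagocyte NADPH oxidase, had 79.2 and 116 in Setdb1 AKO BAT and 123 and 65.9 in control BAT. Ms4a7, a membrane protein of resident macrophages, had 14.4 and 22.7 in Setdb1 AKO BAT and 21.1 and 7.10 in control BAT.

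Because the controls differed, the direction of many markers rested on which control was used. The median log2 change of the tested markers was 0.43 when control 1 was left out and -0.32 when control 2 was left out, against medians of 8e-05 and 0.0066 over all genes. With a knockout mouse left out instead, the median was -0.12 where Setdb1 AKO 2 was dropped and 0.092 where Setdb1 AKO 1 was dropped. Control 1 was also the highest library in 3 of the 5 other leukocyte lists. T and NK cell markers summed to 20.5 and 19.1 CPM in Setdb1 AKO BAT and 35.8 and 18.3 CPM in control BAT. Mast cell markers summed to 44.2 and 50.4 CPM in Setdb1 AKO BAT and 75.1 and 47.8 CPM in control BAT, and dendritic cell markers to 52.3 and 51.6 CPM in Setdb1 AKO BAT and 71.5 and 51.8 CPM in control BAT. Neutrophil markers had control 1 as the lowest library, at 4.65 and 16.0 CPM in Setdb1 AKO BAT and 4.55 and 6.07 CPM in control BAT. B cell markers summed to 328 and 557 CPM in Setdb1 AKO BAT and 20.1 and 12.8 CPM in control BAT. Endothelial markers summed to 1321 and 1096 CPM in Setdb1 AKO BAT and 1210 and 1311 CPM in control BAT. Of the 16 T and NK cell markers, Klrb1c and Ncr1 had under 10 reads in every BAT library, as did Siglech of the 10 dendritic cell markers. Of the mast cell markers 8 were listed, and Ms4a2 and Fcer1a were not. In the T and NK cell, dendritic cell and mast cell lists 0 of the tested genes were called by limma (1.00% of all genes were called higher and 0.677% lower). The part of such differences in the macrophage result was not tested.

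**Figure D2:**
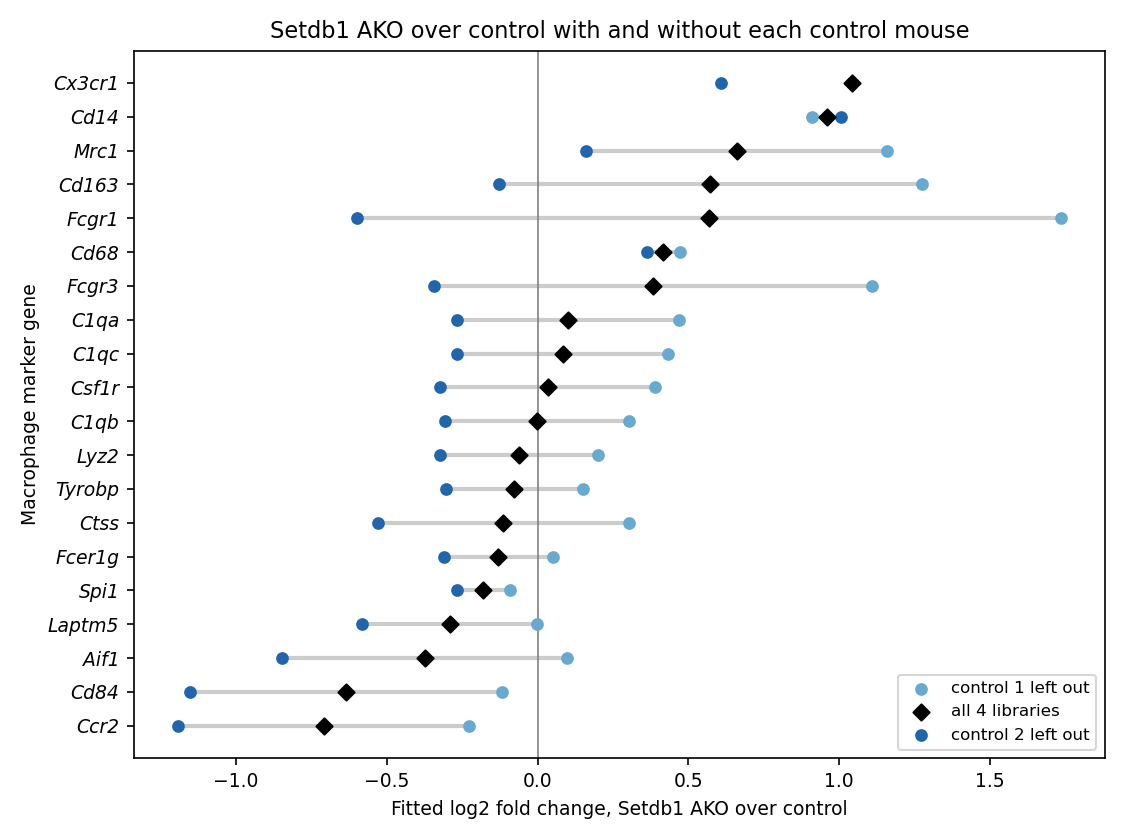
Fitted log2 fold changes of Setdb1 AKO over control BAT for 20 named macrophage markers: black diamonds use all 4 libraries, light blue points leave out control 1 and dark blue points leave out control 2 (Cx3cr1 misses the filter without control 1). Cd14 stays near 1 and Cd68 near 0.4 in all 3 fits, whereas C1qa, C1qc, Csf1r, Cd163, Fcgr1 and Fcgr3 lie above 0 with all 4 libraries and below 0 without control 2.

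The pathways around these markers were read from companion lists. Several of these lists include markers themselves, namely Cd14, Csf1r, Tyrobp, Fcer1g, Spi1 and the C1q genes. Over all genes, limma called 1.00% higher and 0.677% lower. In the CD14 and TLR4 list, 1 of 14 tested genes was called, which is Cd14 counted again. In that list 7 of 14 had a positive log2 change, with a median of 0.017, against 0.0058 over all genes tested. Tlr6, a partner of Toll-like receptor 2, had 7.20 and 7.22 normalised counts in Setdb1 AKO BAT and 20.2 and 23.3 in control BAT, and its adjusted p was 0.192 (limma). In the CSF1 axis, 0 of 7 genes were called (5 positive), and Csf1, the growth factor, had 495 and 2027 normalised counts in Setdb1 AKO BAT and 409 and 743 in control BAT.

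Genes for chemokines that recruit monocytes all had positive changes, 9 of 9 with a median log2 change of 0.65, against 0.0058 over all genes tested. However, 0 were called, where 1.00% of all genes were called higher. Ccl2 had 462 and 852 normalised counts in Setdb1 AKO BAT and 119 and 329 in control BAT (log2 1.66 ± 0.48 SE, limma adjusted p = 0.142). Ccl7 had 490 and 897 in Setdb1 AKO BAT and 186 and 341 in control BAT (log2 1.39 ± 0.36 SE, limma adjusted p = 0.114). For both chemokines the knockout values lay above both controls, an order held by 25.1% of all genes. For the receptor gene Ccr2 they lay below both controls, as they did for 24.9% of all genes. In the classical complement list, 10 of 12 genes were positive and 1 was called: C4b, which encodes complement C4, had 629 and 700 normalised counts in Setdb1 AKO BAT and 294 and 346 in control BAT (log2 1.05 ± 0.17 SE, limma adjusted p = 0.0363). Its rise stood beside C1q chains that lay within the range of the controls. ITAM signalling genes (4 of 12 positive) and macrophage transcription factors (5 of 11 positive) had 0 calls. The lipid-sensing receptor Trem2, which signals through Tyrobp, had 7.20 and 11.3 normalised counts in Setdb1 AKO BAT and 22.9 and 19.3 in control BAT (limma adjusted p = 0.305).

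The cultures labelled as primary brown adipocytes differed widely in macrophage marker level. The markers summed to 2749 CPM in 4-OHT cells and 4819 CPM in ETOH cells, and to 74.3 and 68.3 CPM in siSetdb1 cells and 90.8 CPM in siNC cells. The ETOH sum was 10.7 times the mean of the control BAT libraries and 53.1 times the siNC sum. Levels across experiments come from tables that were prepared separately and are set side by side as a description. In ETOH cells all 31 listed markers had at least 10 reads, and Lyz2 ranked 7 among all listed genes by reads per kilobase, against rank 20 in 4-OHT cells. Marco, a scavenger receptor with 0.18 and 0.37 CPM in Setdb1 AKO BAT and 0.47 and 0.31 CPM in control BAT, reached 63.4 CPM in 4-OHT cells and 189 CPM in ETOH cells. By contrast Timd4 had 4 reads in 4-OHT cells and 13 in ETOH cells, and Ccr2 was not listed. The cultures of the siRNA experiment held between 1202 and 1677 marker reads per library, and 7 of their 29 listed markers had under 10 reads in every library.

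**Figure D3:**
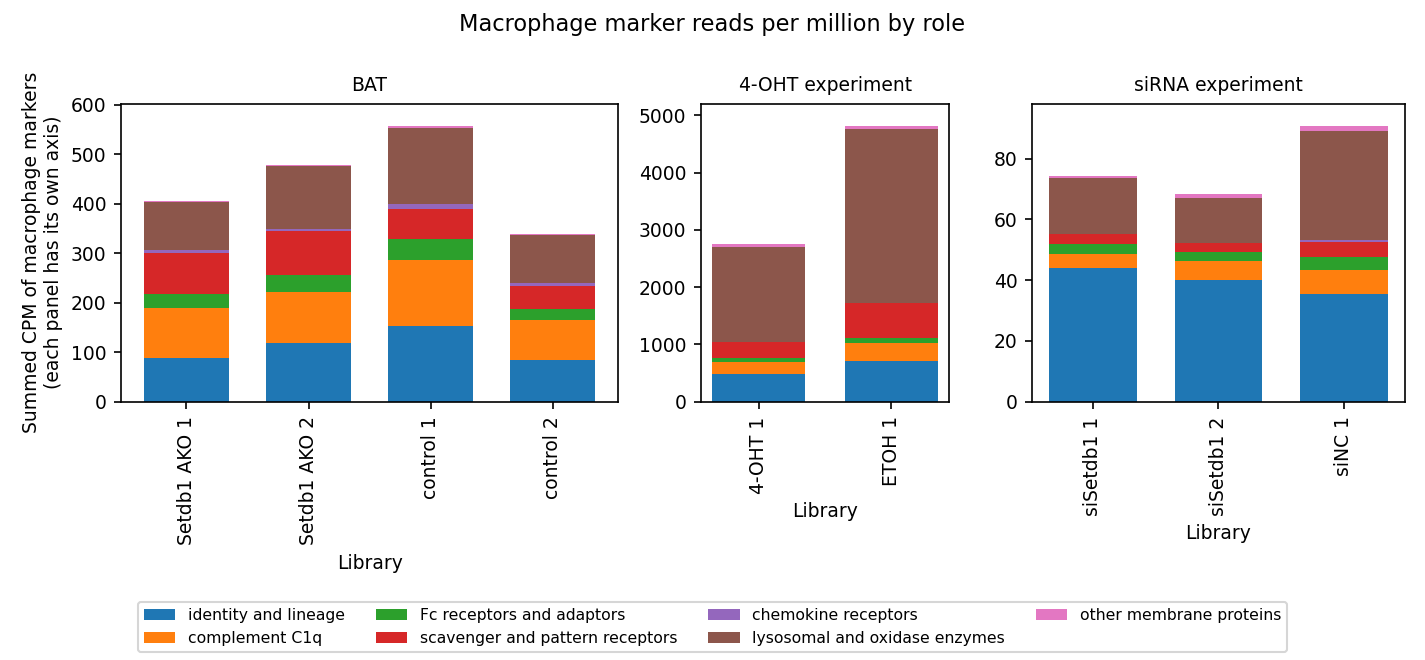
Summed CPM of the macrophage markers, stacked by role, in the 9 libraries, in 3 panels with separate axes that each start at 0: BAT (Setdb1 AKO before control), 4-OHT before ETOH, and siSetdb1 before siNC. The sums run from 339 to 558 CPM in BAT, are 2749 and 4819 CPM in the 4-OHT experiment, where the enzyme group with Lyz2 is the largest segment of each bar, and run from 68.3 to 90.8 CPM in the siRNA experiment.

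In the 4-OHT experiment nearly the whole list was lower in 4-OHT cells. No 4-OHT library without Cre or without the floxed alleles was included. The parts of 4-OHT itself, active Cre and Setdb1 loss therefore cannot be told apart. Of 29 markers that reached 50 reads in either library, 28 were lower in 4-OHT cells than in ETOH cells, against 48.3% of 13969 genes, and the median log2 ratio was -0.58, against 0.011 over all genes. In size, 6 markers were at least 2-fold lower (1.65% of all genes) and 0 were at least 2-fold higher (1.28% of all genes). Clec7a and Cx3cr1 reached 50 reads in ETOH cells only, so they entered through the library in which they were higher. Among the 27 markers that reached 50 reads in both libraries, 26 were lower in 4-OHT cells (47.4% of 13176 genes), 4 by at least 2-fold (0.880% of those genes), and the median log2 ratio was -0.56, against 0.017 over those genes. The summed CPM in 4-OHT cells was 0.571 of that in ETOH cells, and 0.619 without Lyz2. With 1 library per group the difference has no replicate check, and no test was made. The intervals below cover counting error only, at 95%.

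The scavenger and pattern receptors held 5 of the 6 markers past 2-fold. Vsig4, the complement receptor CRIg of resident macrophages (chrX:96247203-96293438, minus strand), had 51 reads in 4-OHT cells and 235 in ETOH cells, a ratio of CPM of 0.215 (exact 95% interval 0.156 to 0.292). Marco (chr1:120474538-120505024, minus strand) had 1914 reads in 4-OHT cells and 5662 in ETOH cells, a ratio of 0.335 (0.318 to 0.353). Cd163 had 716 reads in 4-OHT cells and 1893 in ETOH cells, a ratio of 0.375 (0.344 to 0.409). All 3 are receptors that bind ligands of bacterial, complement or haemoglobin origin. Clec7a had 35 reads in 4-OHT cells against 118 in ETOH cells, and Cd14 had 949 against 2094, a ratio of 0.449 (0.416 to 0.485). The sixth was the chemokine receptor Cx3cr1, with 33 reads in 4-OHT cells and 134 in ETOH cells. Mrc1 and Msr1 were lower by less, with 3360 reads in 4-OHT cells against 5548 in ETOH cells for Mrc1 and 1511 against 2444 for Msr1. Summed over the role, scavenger receptor reads were 286 CPM in 4-OHT cells and 606 CPM in ETOH cells.

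Lyz2 alone had 43473 reads in 4-OHT cells and 80947 in ETOH cells, which was 52.4% of marker reads in 4-OHT cells and 56.2% in ETOH cells. The log2 ratio was -0.84, more negative than that of Ctss at -0.30 and Cybb at -0.71. Identity genes were lower by smaller amounts: the log2 ratio was -0.60 for Adgre1 (2640 reads in 4-OHT cells, 4160 in ETOH cells), -0.58 for Csf1r (3184 and 4939), -0.56 for Spi1 (474 and 728) and -0.23 for Cd68 (874 and 1064). C1qa, C1qb and C1qc had log2 ratios of -0.45, -0.65 and -0.43, from 2326, 1935 and 1805 reads in 4-OHT cells and 3287, 3141 and 2516 in ETOH cells. Laptm5 had 1803 reads in 4-OHT cells and 2495 in ETOH cells, and Ctss had 3873 in 4-OHT cells and 4948 in ETOH cells. Fcgr1 was the only tested marker above 0, with 79 reads in 4-OHT cells and 66 in ETOH cells, and its ratio of 1.19 had an interval (0.845 to 1.67) that includes 1. The other 3 genes of that role, Fcgr3, Fcer1g and Tyrobp, had log2 ratios between -0.51 and -0.33, with 1230, 316 and 652 reads in 4-OHT cells and 1606, 437 and 962 in ETOH cells.

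Companion lists moved as follows in the same pair of libraries, where 48.3% of all genes were lower in 4-OHT cells. Some lists share genes with the macrophage markers: Tyrobp and Fcer1g (ITAM signalling), Spi1 (transcription factors) and C1qa, C1qb and C1qc (complement). Their counts are therefore not separate from the marker counts above. All 12 ITAM signalling genes were lower in 4-OHT cells, with a median log2 ratio of -0.37. Of the macrophage transcription factors 9 of 12 were lower, and of the classical complement genes 11 of 12, C4b being the exception at 0.96. All 7 tested monocyte-recruiting chemokines were lower, with log2 ratios of -1.19 for Ccl2 and -1.05 for Ccl7. Adipocyte markers summed to 9511 CPM in 4-OHT cells and 8187 CPM in ETOH cells, with 8 of 10 higher. Brown adipocyte markers summed to 1406 CPM in 4-OHT cells and 787 CPM in ETOH cells, with 8 of 10 higher and a median log2 ratio of 0.32. That list includes Elovl3, at a log2 ratio of 2.59, and Ucp1, at 289 CPM in 4-OHT cells and 272 CPM in ETOH cells. Elovl3 was also called higher in Setdb1 AKO BAT, at a log2 change of 4.27 (limma adjusted p = 1.0e-04). Fibroblast and preadipocyte markers summed to 15405 CPM in 4-OHT cells and 17690 CPM in ETOH cells, with 11 of 12 tested genes lower and a median log2 ratio of -0.18. T and NK cell markers summed to 5.34 CPM in 4-OHT cells and 3.51 CPM in ETOH cells, and 7 of the 16 were not listed. The part of a different mix of cells in the macrophage marker result was not tested.

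The siRNA experiment had low marker counts and gave no call by limma. Of 22 markers that reached 10 normalised counts in any library, 0 were called (against 0.0394% of 15224 genes), and 4 had an unadjusted p under 0.05 (5.06% of all genes): C1qa, Laptm5, Lyz2 and Mpeg1. The other tools called some of these: edgeR called Lyz2 and Mpeg1, and DESeq2 called Lyz2. In 16 of the 22 both siSetdb1 libraries were below siNC (33.8% of all genes) and in 4 both were above it (34.1% of all genes), and the median log2 change was -0.67, against -0.0034 over all genes. Cybb, Fcgr1 and Ms4a7 reached the filter in siNC only, and Tyrobp and Folr2 in siSetdb1 cells only, so these 5 entered through 1 group. Among the 17 markers that reached it in both groups, both siSetdb1 libraries were below siNC in 13 (34.6% of 14118 genes) and above it in 3 (33.0% of those genes), and the median log2 change was -0.67, against -0.010 over those genes. All of these comparisons share the single siNC library.

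Lyz2 had 244 and 166 normalised counts in siSetdb1 cells, against 527 in siNC cells. Both siSetdb1 libraries were below siNC, with a log2 change of -1.38 ± 0.23 (SE) and a limma adjusted p of 0.0927. Its adjusted p ranged from 4e-06 to 0.733 over the other fits that gave one. Mpeg1 (chr19:12460779-12465284, plus strand) went the other way, with 596 and 490 normalised counts in siSetdb1 cells against 319 in siNC cells. Its log2 change was 0.76 ± 0.17 (SE) with a limma adjusted p of 0.397, and from 0.0104 to 1.00 over the other fits. Mpeg1 made up 44.7% and 40.0% of all marker reads in siSetdb1 cells and 19.3% in siNC cells. Without it the markers summed to 41.1 and 41.0 CPM in siSetdb1 cells and 73.3 CPM in siNC cells. Without Lyz2 the sums were 60.7 and 59.1 CPM in siSetdb1 cells and 61.9 CPM in siNC cells, and without both genes 27.5 and 31.7 CPM in siSetdb1 cells and 44.4 CPM in siNC cells.

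Mpeg1 stood apart from the other identity genes in these cultures. Its level per kilobase was 22.0 and 15.6 times that of Adgre1 in siSetdb1 cells and 6.70 times in siNC cells. The same ratio was 1.37 and 1.17 in Setdb1 AKO BAT, 1.53 and 1.05 in control BAT, 1.31 in 4-OHT cells and 1.16 in ETOH cells. The nearest annotated gene to Mpeg1 is Dtx4, on the opposite strand and 1056 bases away, with 1054 and 920 reads in siSetdb1 cells and 907 in siNC cells. Dtx4 had 2592 reads in 4-OHT cells and 2763 in ETOH cells, and 53 and 92 in Setdb1 AKO BAT and 77 and 65 in control BAT. Whether reads of the 2 genes were mixed was not tested.

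Among the remaining markers of the siRNA experiment, C1qa had 26.3 and 32.6 normalised counts in siSetdb1 cells and 59.2 in siNC cells, and C1qc had 11.1 and 33.6 in siSetdb1 cells and 49.3 in siNC cells. C1qb, their partner chain, had 42.6 and 45.8 in siSetdb1 cells and 39.5 in siNC cells, so the chains did not move together at these counts. Laptm5 had 30.4 and 40.7 in siSetdb1 cells and 72.0 in siNC cells. Csf1r had 58.8 and 71.3 in siSetdb1 cells and 96.7 in siNC cells, and Cd14 had 18.2 and 17.3 in siSetdb1 cells and 33.6 in siNC cells. Their log2 changes were -0.57 ± 0.31 for Csf1r and -0.88 ± 0.54 for Cd14 (SE), with limma adjusted p of 0.940 for each. Cd68 and Ctss, the most counted of the others, had 72.0 and 63.1 in siSetdb1 cells against 86.8 in siNC cells, and 76.0 and 92.7 against 117. Fcgr3 and Tyrobp lay above siNC in both siSetdb1 libraries, by counts of 12 and 12 reads against 11 for Fcgr3 and 16 and 13 reads against 10 for Tyrobp. Fcer1g had 32 and 20 reads in siSetdb1 cells and 42 in siNC cells, Spi1 had 7 and 15 in siSetdb1 cells and 18 in siNC cells, and Cd84 had 6 and 12 in siSetdb1 cells and 13 in siNC cells. Cx3cr1 had 0 reads in both siSetdb1 libraries and 7 in siNC, and Marco had 0 and 6 reads in siSetdb1 cells and 8 in siNC cells. Adipocyte markers summed to 18789 and 17644 CPM in siSetdb1 cells and 19208 CPM in siNC cells.

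**Figure D4:**
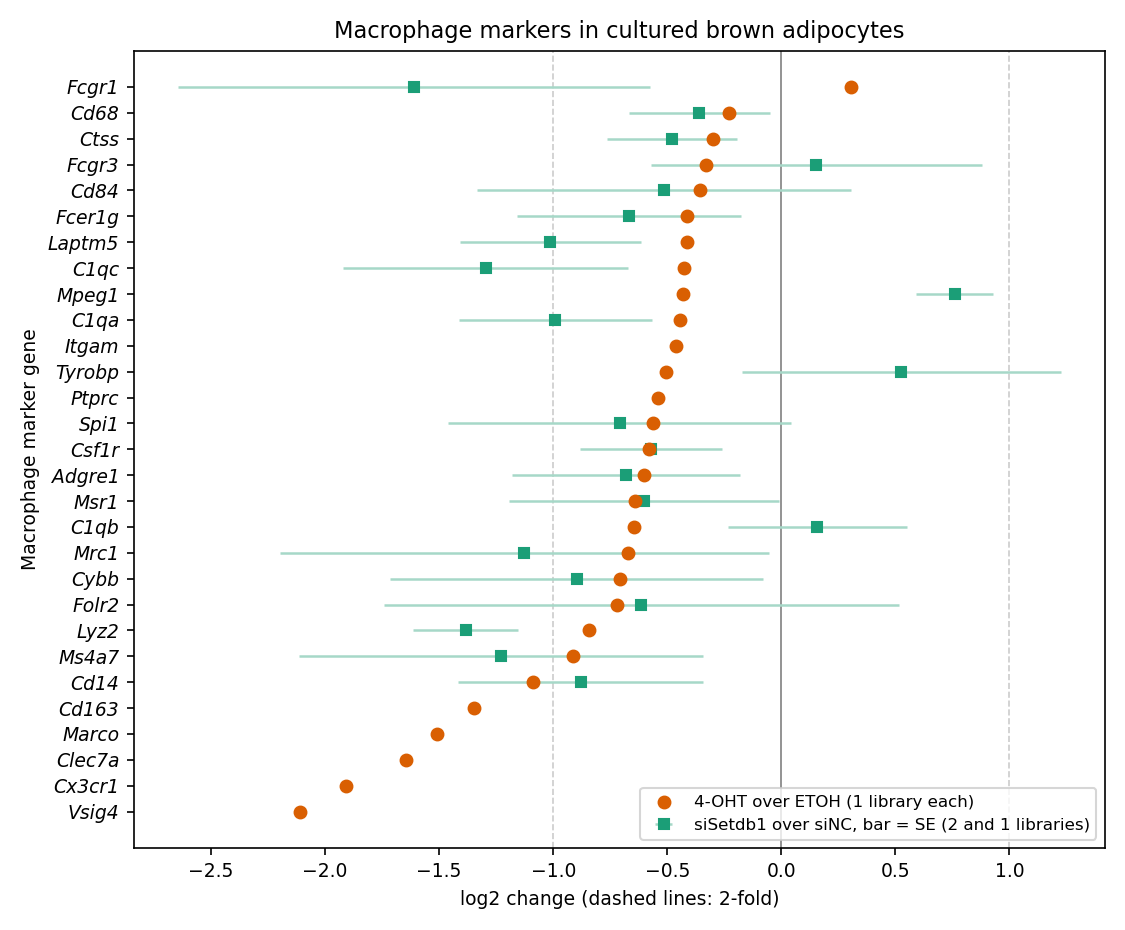
log2 changes of macrophage markers in cultured brown adipocytes: orange points are 4-OHT over ETOH (1 library each, no test), and green squares with bars are siSetdb1 over siNC with the standard error of the fit (2 libraries against 1). Of the orange points 28 of 29 lie below 0, and Mpeg1 is the green square with a narrow bar above 0, at 0.76.

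Set side by side, Cd14 had a log2 change of 0.96 in Setdb1 AKO BAT, -1.09 in 4-OHT cells and -0.88 in siSetdb1 cells. Mrc1 had 0.66 in Setdb1 AKO BAT, -0.67 in 4-OHT cells and -1.13 in siSetdb1 cells, the last from 2 and 16 reads against 15 in siNC cells. Adgre1 was at -0.15, -0.60 and -0.68 in the same order of experiments, and Lyz2 at -0.06, -0.84 and -1.38. Of the other members, Ms4a7 and Cd84 were at -0.91 and -0.36 in 4-OHT cells (794 reads for Cd84, against 1056 in ETOH cells) and -1.23 and -0.52 in siSetdb1 cells, Folr2 was at -0.72 and -0.61, and Itgam and Ptprc, above the read filter only in the 4-OHT cultures, were at -0.46 and -0.54. Aif1 was under the read filter in both cultures, with 18 reads in 4-OHT cells and 37 in ETOH cells, and 2 and 0 in siSetdb1 cells and 2 in siNC cells.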

How the data were processed

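RNA of 4 BAT and 5 cultured-cell libraries was sequenced after oligo(dT) enrichment and NEBNext Ultra II preparation, per the labels' protocols. Per the submitters' processing notes, the tools were Trimmomatic 0.39, STAR 2.7.10a, featureCounts 2.0.3 and DESeq2 1.36.0, with GRCm38/mm10; the annotation release and strand setting are not given in the sources used here. Per the file headers, the 4-OHT table holds raw counts per gene. The BAT and siRNA tables hold a normalised signal, deposited as counts divided by a factor for each library. The FPKM columns and the log2 fold changes, p-values and adjusted p-values deposited by the authors (their DESeq2 use per the submitters' processing notes) were not used.

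Dividing that signal by its step recovered whole reads for 100% of the BAT and siRNA values (tolerance 0.05 reads). Together with the deposited counts of the 4-OHT experiment, libraries held 15979479 to 30176359 reads. The 2 siRNA tables share the siNC library, which was identical in 19381 of 19381 shared genes, so they were joined (factor 1.0024). BAT and siRNA values were tested with limma 3.58.1 (trend) on log2(normalised count + 1), with at least 10 normalised counts in 2 BAT libraries or 1 siRNA library, Benjamini-Hochberg adjustment over all genes and a threshold of 0.05. Fold changes on this scale understate low genes. The siRNA fit had 1 residual degree of freedom. For 4-OHT, log2 ratios of TMM-scaled CPM with prior count 2 were taken for genes that reached 50 counts in either library (edgeR 4.0.16). CPM and reads per kilobase used recovered reads (deposited counts for 4-OHT), total reads and the deposited gene lengths. In 20 simulated data sets per comparison, each with known changes, limma called 32 to 53% (median 41.5%) of 2-fold and 98 to 100% of 4-fold changed genes for BAT, with 0 to 13 false calls among 14148 to 14186 genes. It called 69 to 98% (median 90.5%) of 2-fold and 99 to 100% of 4-fold changed genes for siRNA, with 0 to 17 false calls among 14781 to 14832 genes. The known changes were placed only in genes with a mean of at least 50 normalised counts. Every gene of a comparison was given the same relative spread beyond counting error. The shares therefore do not hold for markers with fewer counts, as many had in the siRNA experiment, or with a wider spread between libraries.

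The members, companion lists, tests and promoter motifs were chosen with earlier results of these data known. All members are accounted for; values in every library that lists them were given for the 12 most abundant per kilobase in BAT, the 5 highest and 5 lowest BAT changes and any called. Of the 31 members with at least 10 reads in a culture, the remaining ones are given there by reads, by log2 change or within counts, which is less than the planned value in every library. Of the companion lists, the called genes were named, but only some of those with the largest BAT changes, which is less than planned. The mural and smooth muscle, skeletal muscle, erythroid and Schwann cell lists are not described. The replicate numbers in the labels were not treated as pairs, since same-numbered mice did not deviate together (r = -0.015 over 14466 genes). Alternatives were edgeR's quasi-likelihood test and DESeq2 1.42.0 on recovered reads, TMM scaling, other filters and pseudocounts, leaving out each replicate and a replicate block. Counts over genes that reached the filter in both groups were added after seeing the data.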

Additional observations from a re-analysis of the deposited data

Results flagged for a closer look

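Some markers moved one way in every library of 1 experiment and the other way in every library of another; the differences below are between log2 changes and were not tested. Cd14 was higher in both Setdb1 AKO BAT libraries and lower in 4-OHT cells and in both siSetdb1 libraries, a difference in log2 change of 2.05 from the 4-OHT experiment and of 1.84 from the siRNA experiment. Mrc1 was higher in both Setdb1 AKO BAT libraries and lower in 4-OHT cells, a difference of 1.33. Mpeg1, Tyrobp, C1qb and Fcgr3 were higher in both siSetdb1 libraries and lower in 4-OHT cells, with differences of 1.19, 1.03, 0.80 and 0.49. In siSetdb1 against siNC cells, Tyrobp had only 16 and 13 reads against 10. C1qb had 42 and 45 against 40, and Fcgr3 had 12 and 12 against 11. Fcgr1 was lower in both siSetdb1 libraries and higher in 4-OHT cells, a difference of -1.91 that rests on 3 and 4 reads in siSetdb1 cells and 13 in siNC cells. Tyrobp reached the siRNA filter in siSetdb1 cells only and Fcgr1 in siNC cells only, each through the group in which it was higher. The 4-OHT side of each difference is 1 library per group, and the siRNA side shares 1 siNC library.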

How the results depend on the processing

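In BAT, Cd14 was the single marker called higher under edgeR, DESeq2, TMM scaling, a filter of 50, pseudocounts of 0.5 and 5, and the replicate block (181 genes higher and 118 lower, 1 marker called). With no filter the count was 0, as it was with any 1 mouse left out (0 to 0). Over all genes, calls higher in Setdb1 AKO BAT numbered 145, with 364 by DESeq2, 11 with no filter and 22 to 98 with a mouse left out. Calls lower numbered 98, with 287, 0 and 0 to 59 in the same order. The median of the markers ranged from -0.32 to 0.43 with a mouse left out. The sign of the fitted log2 change turned with a mouse left out for Cd68 (-0.058 to 0.89), Lyz2 (-0.32 to 0.20), C1qa (-0.27 to 0.47), C1qb (-0.31 to 0.30), C1qc (-0.27 to 0.43), Csf1r (-0.32 to 0.39), Cd163 (-0.13 to 1.27), Fcgr1 (-0.60 to 1.73), Fcgr3 (-0.34 to 1.11), Fcer1g (-0.31 to 0.052), Tyrobp (-0.30 to 0.15), Ctss (-0.53 to 0.30) and Aif1 (-0.85 to 0.099), and for C1qb also under TMM scaling (0.0048). None of these 13 genes was called in any fit. Of 234 alternative values for 20 named markers, 212 kept direction and side of the threshold.

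In the siRNA experiment limma called 0 markers, against 2 by edgeR, 1 by DESeq2, 2 with TMM scaling and 1 with a filter of 50. All-gene calls numbered 6, with 37 by edgeR, 11 by DESeq2, 65 with TMM scaling, 0 with no filter, 29 with a filter of 50 and 3 with either pseudocount. The cause was not tested. Leaving out a siSetdb1 library gives a value with no test, and siNC has no second library. No paired analysis was possible because the siNC library carries no replicate number, and the 4-OHT experiment has 1 library per group. There the 6 markers past 2-fold stayed 6 with total-read scaling and prior count 0.5 and were 7 with a filter of 10 counts, under which all genes past 2-fold numbered 1382 rather than 410. Counting only genes that reached the filter in both groups, chosen after seeing the data, gave 4 markers and 217 genes past 2-fold, and 0 markers and 5 genes called in the siRNA experiment. Low marker counts limit the siRNA values, with 1202 to 1677 reads over the whole list.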

Other observations

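In BAT the B cell list held 1 called gene, Ighm, with 5384 and 9086 normalised counts in Setdb1 AKO BAT and 56.0 and 46.7 in control BAT. Of the other B cell genes, 6 of the 10 had under 10 reads in every BAT library (Cd79b, Ms4a1, Pax5, Cd22, Fcrla and Cr2), and Igkc had 193 and 116 normalised counts in Setdb1 AKO BAT and 229 and 107 in control BAT, with the same order of the controls as most macrophage markers. Of the neutrophil markers, 7 of the 12 had under 10 reads in every BAT library. In the fibroblast and preadipocyte list all 15 genes had a positive log2 change in BAT, with a median of 0.28, against 0.0058 over all genes tested. Their summed CPM overlapped between the groups, at 837 and 1198 in Setdb1 AKO BAT and 965 and 830 in control BAT. Of these genes 2 were called higher by limma (1.00% of all genes), Pi16 and Pdpn. Pi16 had 229 and 562 normalised counts in Setdb1 AKO BAT and 63.3 and 36.5 in control BAT. Pdpn had 60.7 and 80.5 in Setdb1 AKO BAT and 10.1 and 17.2 in control BAT.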
